A study of Schizosaccharomyces pombe with 21 samples.

Results

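The genes pho84, pho1 and ecl3 lie next to each other on chromosome II of fission yeast together with 2 long noncoding RNA (lncRNA) genes, prt2 and nc-pho1. The 5 loci were taken by identifier (SPBC8E4.01c for pho84, SPBP4G3.02 for pho1, SPBC8E4.12c for ecl3, SPNCRNA.9001 for prt2 and SPNCRNA.1712 for nc-pho1, also called prt) from the 6988 loci counted in every library. All 5 passed the low-count filter in both experiments. Poly(A)+ RNA was sequenced from 21 libraries of haploid strains in 7 groups, with 3 biological replicates per group, from log phase cultures at 30 °C. The STF experiment, grown in ePMGT (a synthetic minimal glutamate medium with thiamine), held a wild-type control, asp1-WT, and the mutants STF6 (asp1-W386*) and STF9 (asp1-W493*), both h+ with a hygMX drug marker at asp1. The kcs1 experiment, grown in YES (a rich yeast extract medium), held kcs1-WT, R332T (kcs1-R332T), L338R (kcs1-L338R) and E834K (kcs1-E834K), all h+ with a kanMX marker at kcs1. Each of these groups had 1 lab strain number, while the asp1-WT replicates had 2. Replicate 1 came from BS216, which is h+ with hygMX at asp1, and replicates 2 and 3 came from AS478, whose genotype is labelled asp1-WT and whose mating type and marker are not given in the sources used here.

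Pho84 is a plasma membrane transporter of inorganic phosphate and Pho1 is a secreted acid phosphatase of the cell surface. Ecl3 is a small protein of a family known for extending chronological lifespan when overexpressed. In fission yeast with ample phosphate, transcription of the lncRNA prt2 across the pho84 promoter, and of nc-pho1 across the pho1 promoter, interferes with the mRNA downstream, and early 3' processing and termination of the lncRNA relieves that interference. The inositol pyrophosphate IP8 promotes that early termination. Kcs1 is the kinase that makes its precursor from IP6, and Asp1 holds a kinase domain that makes IP8 and a pyrophosphatase domain that removes it. The STF6 and STF9 stop codons truncate Asp1 in its C-terminal part, which holds the pyrophosphatase domain, at different points. The kcs1 missense alleles came from screens for suppressors of sick asp1 pyrophosphatase mutants and were rebuilt in asp1+ cells, each, like kcs1-WT, with its own promoter, an ADH1 terminator and the marker. The prt2 and nc-pho1 transcripts are also targets of nuclear RNA decay, and poly(A)+ libraries read only what is polyadenylated and stable enough to be captured.

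Total counts per library were 20547260 to 35919903 in the STF experiment and 19515604 to 27776638 in the kcs1 experiment. pho84 and pho1 together took 0.240% to 0.271% of all counts in the asp1-WT libraries, 1.83% to 2.09% in STF6 and 1.97% to 1.99% in STF9. They took 0.461% to 0.495% in kcs1-WT, 0.0121% to 0.0146% in R332T, 0.149% to 0.166% in L338R and 0.151% to 0.157% in E834K. The lncRNAs rested on far fewer reads than these, 252 to 934 per library for prt2 and 20 to 188 for nc-pho1. ecl3 had 276 or more counts in the wild-type and STF libraries, but 20 to 86 in the kcs1 mutants. Counting error is therefore large for nc-pho1 everywhere and for ecl3 in the kcs1 mutants. Levels below are counts per 1000000 (CPM) of the effective library size, meaning the total count scaled by its TMM factor. Levels of different loci were not divided by transcript length and are compared only within a locus. A later build's annotation has prt2 overlapping pho84, and nc-pho1 overlapping pho1, on the same strand, with ecl3 beside prt2 in the opposite orientation. Whether the gene models behind the counts overlapped in that way, and how reads from such stretches or from the opposite strand were counted, was not tested here.

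The first question was how the 5 transcripts stood in asp1 mutants truncated in the pyrophosphatase part of the protein. In both STF6 and STF9 the 3 mRNAs rose by 4.77-fold to 13.2-fold over asp1-WT, and both lncRNAs fell. All 5 loci passed an adjusted p of at most 0.05 in STF6 (3 higher, 2 lower) and in STF9 (3 higher, 2 lower). Of 6144 loci tested, 28.2% passed in either direction in STF6 (16.6% higher and 11.6% lower) and 33.3% in STF9 (18.2% higher and 15.1% lower). When a 2-fold change and a mean of 100 or more normalized counts were also required, the 3 mRNAs were called higher in each mutant, as were 2.51% of loci in STF6 and 2.12% in STF9. Both mutants were compared with the same 3 asp1-WT libraries, so the fold changes of STF6 and STF9 are not independent of each other.

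pho84 stood at 1359, 1371 and 1160.1 CPM in asp1-WT replicates 1 to 3, at 6809.8, 6490.1 and 5275 CPM in STF6 and at 6899, 7088 and 6812 CPM in STF9. The wild-type libraries lay below all 6 mutant libraries. pho84 rose 4.77-fold in STF6, a log2 fold change of 2.26 (standard error 0.14, edgeR quasi-likelihood test, adjusted p = 1.34e-07), and 5.35-fold in STF9, or 2.42 on the log2 scale (standard error 0.14, edgeR, adjusted p = 6.78e-08).

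pho1 stood at 1413, 1177 and 974 CPM in asp1-WT, at 14857, 13082 and 10812 CPM in STF6 and at 14143, 14719 and 14819 CPM in STF9. Again no mutant library overlapped the wild type, and replicate 3 was the lowest of its group in both asp1-WT and STF6. For pho1 the change was 3.44 on the log2 scale in STF6 (standard error 0.18, adjusted p = 2.92e-08, edgeR), or 10.9-fold, and 3.62 in STF9 (standard error 0.18, adjusted p = 2.23e-08, edgeR), or 12.2-fold.

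ecl3 stood at 13.9, 9.82 and 10.4 CPM in asp1-WT, at 165, 150.4 and 138 CPM in STF6 and at 153, 135 and 154 CPM in STF9. The groups of mutants and wild type were apart by far more than the spread of either. ecl3 changed by 3.73 on the log2 scale in STF6 (standard error 0.13, adjusted p = 7.51e-10, edgeR), or 13.2-fold, and 3.69 in STF9 (standard error 0.13, adjusted p = 8.44e-10, edgeR), or 12.9-fold. In both comparisons ecl3 had the 3rd smallest p-value of the 6144 loci.

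prt2, the lncRNA that precedes pho84, stood at 26.1, 33.2 and 26.3 CPM in asp1-WT, at 15.9, 14.5 and 15.6 CPM in STF6 and at 15.4, 14.6 and 13.5 CPM in STF9. Every mutant library was below every wild-type library. For prt2 the log2 fold change was -0.90 in STF6 (standard error 0.13, adjusted p = 0.000236, edgeR), a level 1.86-fold lower, and -0.98 in STF9 (standard error 0.13, adjusted p = 0.000126, edgeR), 1.97-fold lower.

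nc-pho1, the lncRNA that precedes pho1, stood at 5.35, 4.45 and 3.33 CPM in asp1-WT (188, 125 and 99 counts), at 2.72, 2.58 and 2.76 CPM in STF6 (68, 67 and 83 counts) and at 2.12, 2.1 and 2.46 CPM in STF9 (57, 58 and 46 counts). The mutant libraries were again all below the wild-type libraries, among which replicate 1 was the highest. nc-pho1 had a log2 fold change of -0.71 in STF6 (standard error 0.22, adjusted p = 0.0269, edgeR), 1.63-fold lower, and -0.98 in STF9 (standard error 0.22, adjusted p = 0.0049, edgeR), 1.97-fold lower. The STF6 call on nc-pho1 was lost without asp1-WT replicate 1 (log2 fold change -0.53, adjusted p = 0.133, edgeR), without asp1-WT replicate 2 (-0.70, adjusted p = 0.0755) and without STF6 replicate 2 (-0.68, adjusted p = 0.099). Without asp1-WT replicate 1, the one with the other strain number, the log2 fold changes in STF6 were 2.29 for pho84, 3.58 for pho1, 3.90 for ecl3 and -0.96 for prt2, and those in STF9 were 2.45, 3.76, 3.87 and -1.04, with nc-pho1 at -0.81. All of these kept an adjusted p of at most 0.05.

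**Figure D1:**
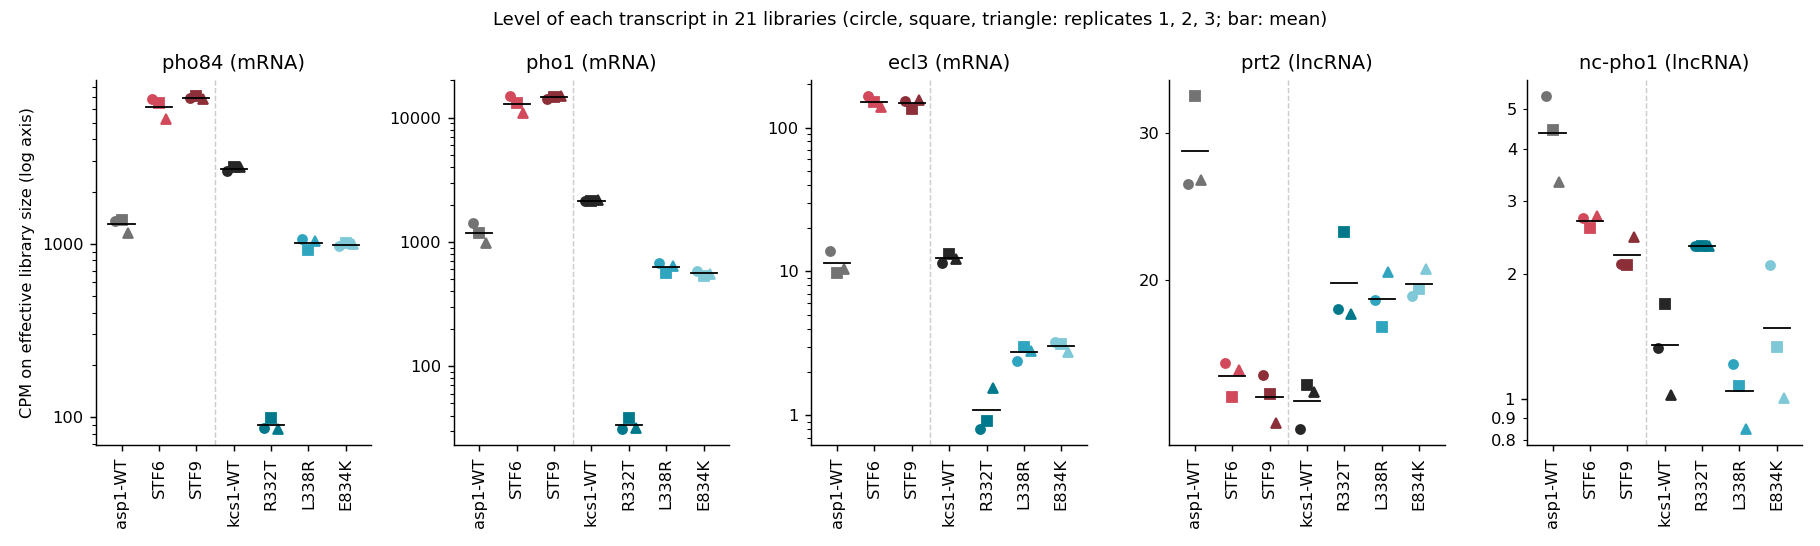
Levels of the 5 transcripts in the 21 libraries, in CPM of the effective library size on a log axis that differs between panels (circle, square and triangle for replicates 1, 2 and 3, bar for the group mean, dashed line between the experiments). The 3 mRNAs were high in STF6 and STF9 and lowest in R332T, and prt2 and nc-pho1 were highest in asp1-WT.

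**Figure D2:**
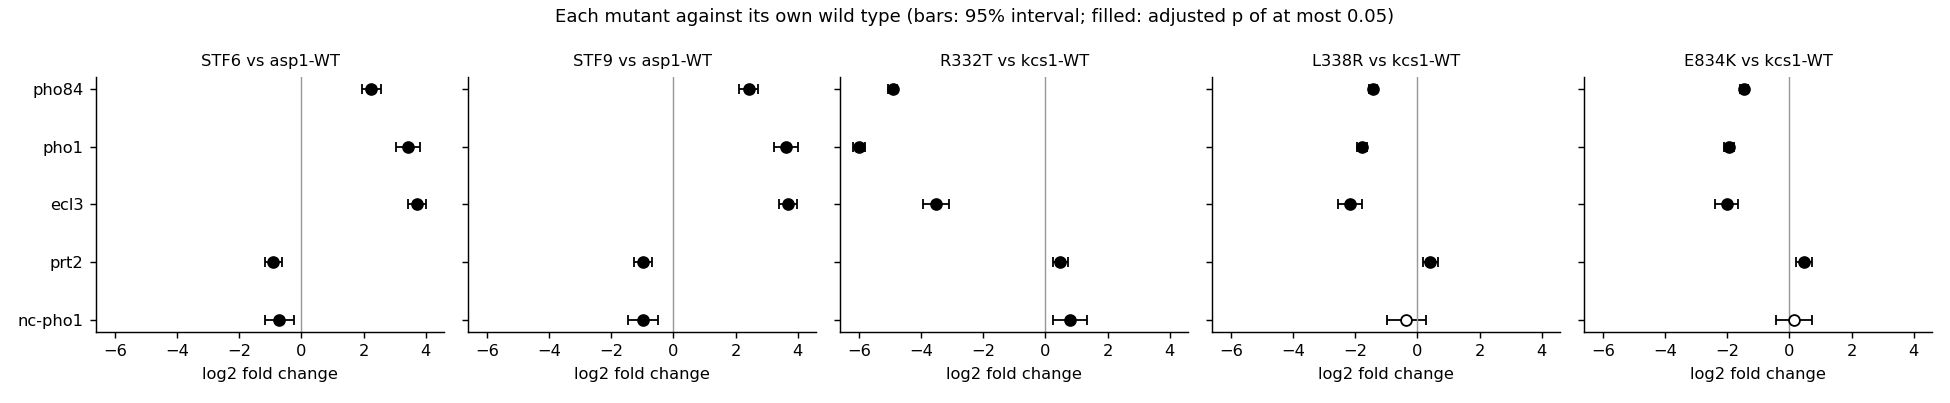
Log2 fold change of each transcript in each mutant against its own wild type (points, bars for the 95% interval, filled where the adjusted p was at most 0.05). The mRNAs lay right of 0 in the STF mutants, from 2.26 to 3.73, and left of 0 in the kcs1 mutants, from -1.43 to -5.99. prt2 lay on the other side of 0 in all 5 panels, and nc-pho1 missed the threshold in L338R and E834K.

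STF6 and STF9 end the Asp1 protein at different positions, and were compared with each other to see whether the cluster differed between them. None of the 5 loci passed in STF9 against STF6 in the edgeR quasi-likelihood test. None had an unadjusted p under 0.05 either, and DESeq2 passed 0 while giving no adjusted p for 3 of them. Of all loci tested, 0.0814% passed (5 of 6144). The log2 difference, STF9 minus STF6, was 0.16 for pho84 (95% interval -0.12 to 0.45), 0.17 for pho1 (-0.18 to 0.52), -0.04 for ecl3 (-0.28 to 0.21), -0.08 for prt2 (-0.37 to 0.21) and -0.28 for nc-pho1 (-0.77 to 0.22). The adjusted p of pho84 was 0.409. Its CPM with TMM factors was higher in every STF9 library than in any STF6 library, but only just (6812 against 6809.8 CPM). As a share of all counts, pho84 overlapped between the alleles, at 0.655%, 0.653% and 0.599% in STF6 and 0.644%, 0.647% and 0.621% in STF9, and with total counts in place of TMM factors its log2 difference was 0.0033. Differences as large as those bounds remained possible.

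The second question was how the transcripts stood in cells with missense alleles of the Kcs1 kinase. The 3 mRNAs fell in all 3 mutants, and by far the most in R332T. prt2 rose by 1.33-fold to 1.39-fold. In R332T all 5 loci passed (2 higher, 3 lower), where 34.1% of the 6093 loci tested passed in either direction (14.3% higher, 19.8% lower). In L338R 4 passed (1 higher, 3 lower) against 22.4% of loci (10.9% higher, 11.5% lower). In E834K 4 passed (1 higher, 3 lower) against 27.8% of loci (12.4% higher, 15.4% lower). With the fold and count minimum, the 3 mRNAs were called lower in every kcs1 mutant, as were 0.377% of loci in R332T, 0.476% in L338R and 0.443% in E834K. The 3 mutants shared the kcs1-WT libraries.

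pho84 stood at 2611, 2783 and 2755 CPM in kcs1-WT and at 86.7, 98.4 and 85.5 CPM in R332T. It stood at 1064, 921 and 1031 CPM in L338R and at 966, 1003 and 997 CPM in E834K. No mutant library reached the wild type, and the R332T libraries lay far below those of the other alleles. The log2 fold change of pho84 was -4.91 in R332T (standard error 0.07, edgeR quasi-likelihood test, adjusted p = 1.35e-15), a level 30.1-fold lower. It was -1.43 in L338R (standard error 0.06, adjusted p = 1.46e-09, edgeR), 2.70-fold lower, and -1.46 in E834K (standard error 0.06, adjusted p = 1.17e-09, edgeR), 2.75-fold lower.

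pho1 stood at 2119, 2133 and 2183 CPM in kcs1-WT and at 31.4, 37.9 and 31.7 CPM in R332T. It stood at 678, 559 and 643 CPM in L338R and at 587, 535 and 549 CPM in E834K. The groups followed the order seen for pho84. For pho1 the log2 fold change was -5.99 in R332T (standard error 0.09, adjusted p = 1.41e-15, edgeR), 63.6-fold lower. It was -1.77 in L338R (standard error 0.07, adjusted p = 1.46e-09, edgeR), 3.42-fold lower, and -1.94 in E834K (standard error 0.07, adjusted p = 1.01e-09, edgeR), 3.85-fold lower. Among all loci tested in R332T, pho84 and pho1 ranked 1st and 2nd by p-value and 2nd and 1st by the size of the log2 fold change.

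ecl3 stood at 11.5, 13.2 and 12.2 CPM in kcs1-WT (285, 311 and 311 counts) and at 0.807, 0.911 and 1.54 CPM in R332T (20, 25 and 35 counts). It stood at 2.39, 3.00 and 2.80 CPM in L338R and at 3.22, 3.11 and 2.77 CPM in E834K. All mutant libraries were below the wild type, and R332T replicate 3 was the highest of its group. For ecl3 the log2 fold change was -3.51 in R332T (standard error 0.20, adjusted p = 2.87e-08, edgeR), 11.4-fold lower. It was -2.17 in L338R (standard error 0.18, adjusted p = 1.14e-06, edgeR), 4.50-fold lower, and -2.01 in E834K (standard error 0.17, adjusted p = 2.09e-06, edgeR), 4.04-fold lower.

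prt2 stood at 13.2, 14.9 and 14.7 CPM in kcs1-WT and at 18.4, 22.8 and 18.2 CPM in R332T. It stood at 18.9, 17.5 and 20.4 CPM in L338R and at 19.1, 19.5 and 20.6 CPM in E834K. Every mutant library was above every kcs1-WT library. prt2 was higher by 0.47 on the log2 scale in R332T (standard error 0.11, adjusted p = 0.00558, edgeR), 0.41 in L338R (standard error 0.11, adjusted p = 0.0188, edgeR) and 0.47 in E834K (standard error 0.11, adjusted p = 0.00732, edgeR). The L338R call on prt2 was lost when L338R and kcs1-WT alone were fitted (log2 fold change 0.42, adjusted p = 0.0806), without kcs1-WT replicate 1 (0.35, adjusted p = 0.0814) and without L338R replicate 3 (0.35, adjusted p = 0.0799).

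nc-pho1 stood at 1.33, 1.70 and 1.02 CPM in kcs1-WT (33, 40 and 26 counts) and at 2.34, 2.33 and 2.33 CPM in R332T (58, 64 and 53 counts). It stood at 1.21, 1.08 and 0.85 CPM in L338R (28, 24 and 20 counts) and at 2.1, 1.34 and 1.01 CPM in E834K (49, 37 and 20 counts). The R332T libraries were all above kcs1-WT, while the L338R and E834K libraries overlapped it, and replicate 1 of E834K stood apart from the other two. nc-pho1 had a log2 fold change of 0.79 in R332T (standard error 0.26, adjusted p = 0.0299, edgeR), or 1.73-fold. That call was lost with DESeq2 (adjusted p = 0.0676) and in 5 of the 6 fits that each left out 1 library, those without kcs1-WT replicate 1 (adjusted p = 0.0852), kcs1-WT replicate 3 (log2 fold change 0.63, adjusted p = 0.109) or R332T replicate 1, 2 or 3 (adjusted p = 0.0712, 0.0707 and 0.0686). In L338R the log2 fold change was -0.36 (95% interval -0.98 to 0.26, adjusted p = 0.416, edgeR) and in E834K it was 0.15 (95% interval -0.44 to 0.74, adjusted p = 0.721, edgeR). The R332T estimate of 0.79 lay outside the L338R interval and just outside the E834K interval. Its own 95% interval, 0.24 to 1.35, overlapped both. These intervals share the kcs1-WT libraries, so their overlap is no test between alleles. The direct comparisons of the alleles follow.

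The alleles of kcs1 were also compared with each other. R332T differed from L338R in 4 of the 5 loci (1 higher, 3 lower), against 36.6% of all loci tested (17.6% higher, 19% lower). pho84 was 11.1-fold lower in R332T than in L338R (log2 fold change -3.48, standard error 0.07, adjusted p = 7.66e-14, edgeR), pho1 was 18.6-fold lower (-4.22, standard error 0.08, adjusted p = 8.04e-14) and ecl3 was 2.54-fold lower (-1.34, standard error 0.22, adjusted p = 0.000543). nc-pho1 was 2.23-fold higher in R332T than in L338R (log2 fold change 1.15, standard error 0.27, adjusted p = 0.00618, edgeR), and without overlap of the libraries. prt2 did not pass (log2 fold change 0.07, 95% interval -0.17 to 0.31).

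R332T differed from E834K in 3 of the 5 loci, all lower, against 13.9% of loci (4.05% higher, 9.88% lower). pho84 was 10.9-fold lower (log2 fold change -3.45, standard error 0.07, adjusted p = 8.34e-14, edgeR), pho1 16.5-fold lower (-4.05, standard error 0.08, adjusted p = 1.33e-13) and ecl3 2.82-fold lower (-1.50, standard error 0.21, adjusted p = 0.000345). The lncRNAs did not pass, at 0.01 for prt2 (95% interval -0.23 to 0.25) and 0.64 for nc-pho1 (0.09 to 1.20, adjusted p = 0.117, edgeR). The nc-pho1 difference passed without E834K replicate 1 (log2 fold change 0.97, adjusted p = 0.0387, edgeR) and when the 2 groups alone were fitted (0.64, adjusted p = 0.0476).

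L338R and E834K could not be told apart in any of the 5 loci, nor in any of the 6093 loci tested (0% passed with edgeR). At an unadjusted p under 0.05 there were 893 loci, 1 of the 5 among them (pho1), while DESeq2 passed 17 loci higher and 3 lower and none of the 5, with no adjusted p for 3 of these. The log2 difference, L338R minus E834K, was 0.02 for pho84 (95% interval -0.10 to 0.15), 0.17 for pho1 (0.02 to 0.32, adjusted p = 0.322, edgeR) and -0.15 for ecl3 (-0.56 to 0.25). It was -0.06 for prt2 (-0.30 to 0.18) and -0.51 for nc-pho1 (-1.13 to 0.11). The pho1 difference passed without L338R replicate 2 (log2 fold change 0.25, adjusted p = 0.0417, edgeR).

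**Figure D3:**
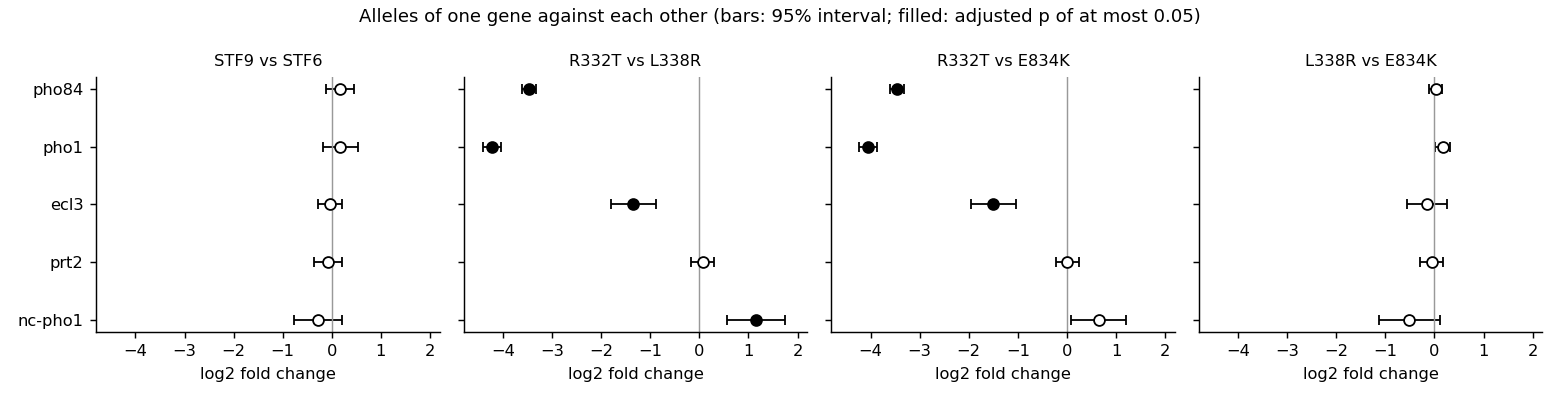
Log2 fold change between alleles of one gene (points, bars for the 95% interval, filled where the adjusted p was at most 0.05). R332T lay below both other kcs1 alleles in the 3 mRNAs, from -1.34 to -4.22, while all intervals but that of pho1 covered 0 in L338R against E834K, and all covered 0 in STF9 against STF6.

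Over the 7 groups the order of mean pho84 levels was STF9 (6933 CPM), STF6 (6192 CPM), kcs1-WT (2716 CPM), asp1-WT (1297 CPM), L338R (1005 CPM), E834K (989 CPM) and R332T (90.2 CPM), a span of 76.9-fold. Only L338R and E834K, of the neighbours in that order, overlapped in their libraries. TMM factors were computed within each experiment, so CPM values from different experiments were not scaled to each other. The orders, spans and overlaps across experiments are read with that limit. The order was the same for pho1, from 14560.4 CPM in STF9 to 33.6 CPM in R332T, a span of 433-fold, with overlap between STF9 and STF6 and between L338R and E834K. For ecl3 the span was 139-fold, from 151 CPM in STF6 to 1.09 CPM in R332T. In ecl3 the libraries of STF6 and STF9, of kcs1-WT and asp1-WT, and of E834K and L338R overlapped.

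The lncRNAs spanned much less and in another order. prt2 spanned 2.00-fold, from 28.6 CPM in asp1-WT to 14.3 CPM in kcs1-WT. The libraries of R332T, E834K and L338R (19.8, 19.8 and 19.0 CPM) overlapped in that locus, as did those of STF6, STF9 and kcs1-WT (15.3, 14.5 and 14.3 CPM). nc-pho1 spanned 4.18-fold, from 4.38 CPM in asp1-WT to 1.05 CPM in L338R. In nc-pho1 asp1-WT was apart from STF6 (2.68 CPM), and STF6 from R332T (2.33 CPM), and the 5 groups from R332T down each overlapped the next. No test was made across the experiments, because medium and experiment cannot be told apart.

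Each mRNA was then set against its neighbouring lncRNA within the same library, as the log2 ratio of their counts with 0.5 added to each. The ratio needs no scaling of the libraries. Its level depends on transcript lengths, and only its difference from the wild type of the same experiment is read here. The pho84 over prt2 ratio was 5.51 ± 0.17 (SD, n = 3) in the asp1-WT libraries. It rose to 8.65 ± 0.22 in STF6, an increase of 8.83-fold, and to 8.90 ± 0.09 in STF9, an increase of 10.5-fold. From 7.57 ± 0.04 in kcs1-WT it fell to 2.19 ± 0.07 in R332T, to 5.73 ± 0.08 in L338R and to 5.64 ± 0.05 in E834K. R332T thus held 0.0240 times the ratio of its wild type, L338R 0.279 times and E834K 0.263 times.

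The ecl3 over prt2 ratio went from -1.34 ± 0.42 in asp1-WT to 3.30 ± 0.13 in STF6, an increase of 24.9-fold, and to 3.35 ± 0.16 in STF9, an increase of 25.7-fold. From -0.22 ± 0.04 in kcs1-WT it went to -4.22 ± 0.58 in R332T, to -2.79 ± 0.23 in L338R and to -2.70 ± 0.17 in E834K. These are 0.0625, 0.168 and 0.179 times the wild-type ratio.

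The pho1 over nc-pho1 ratio went from 8.09 ± 0.08 in asp1-WT to 12.21 ± 0.25 in STF6, an increase of 17.4-fold, and to 12.67 ± 0.11 in STF9, an increase of 23.8-fold. From 10.64 ± 0.38 in kcs1-WT it went to 3.83 ± 0.16 in R332T, to 9.21 ± 0.28 in L338R and to 8.60 ± 0.47 in E834K. These are 0.00891, 0.370 and 0.242 times the wild-type ratio. For all 3 ratios, no library of any mutant overlapped the libraries of its own wild type. The ratios combine changes already given for the separate loci and carry no test of their own. With 3 against 3 libraries an exact two-sided permutation test cannot go below p = 0.1.

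**Figure D4:**
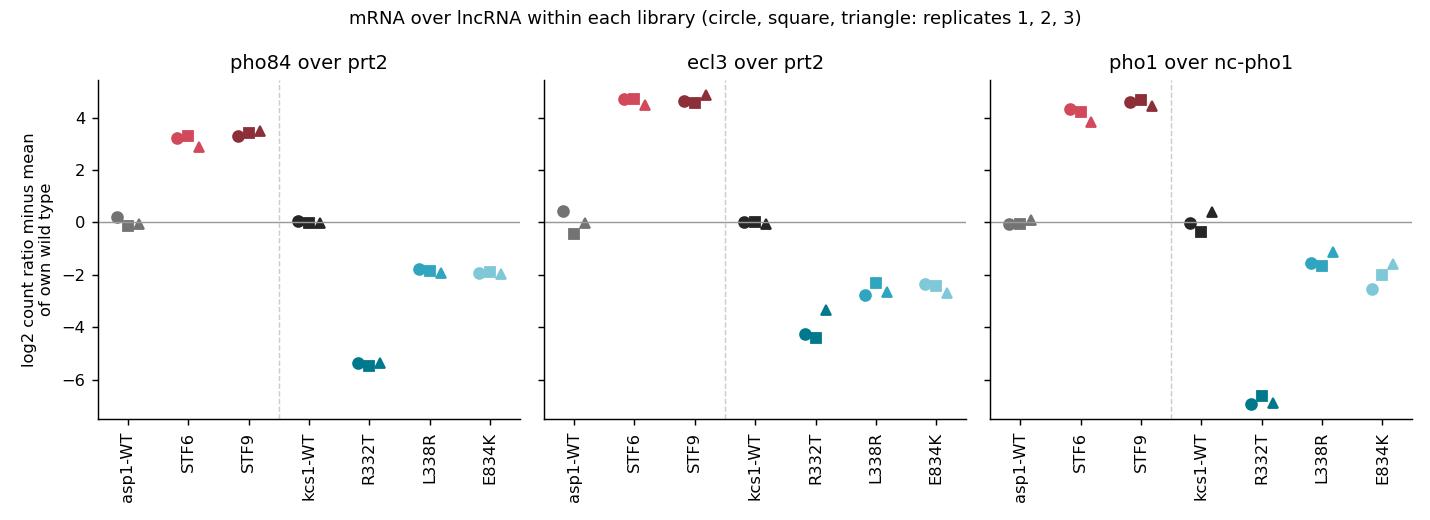
Log2 ratio of mRNA to lncRNA counts in each library minus the mean of the wild type of the same experiment (circle, square and triangle for replicates 1, 2 and 3, dashed line between the experiments). All STF6 and STF9 libraries lay above 0 and all kcs1 mutant libraries below it, with R332T lowest in each panel.

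The mRNAs did not move by equal amounts. The log2 ratio of pho1 to pho84 counts was -0.14 ± 0.17 (SD, n = 3) in the asp1-WT libraries, against 1.06 ± 0.06 in STF6 and 1.07 ± 0.05 in STF9. The kcs1-WT libraries held -0.34 ± 0.04, against -1.42 ± 0.05 in R332T, -0.68 ± 0.03 in L338R and -0.83 ± 0.10 in E834K. pho1 therefore rose more than pho84 in the STF mutants and fell more in all kcs1 mutants, with no overlap with the wild-type libraries. The log2 ratio of ecl3 to pho84 was higher than wild type in STF6, STF9 and also R332T, by 1.49, 1.29 and 1.38, and lower in L338R and E834K, where the differences were -0.73 and -0.55. ecl3 thus fell less than pho84 in R332T and more than pho84 in L338R and E834K. The R332T difference rested on 20, 25 and 35 ecl3 counts in replicates 1 to 3. It was uneven between them, at 1.07, 1.06 and 2.01. The prt2 to nc-pho1 ratio overlapped the wild type in STF6, STF9, R332T and E834K and was 1.68 times the wild-type ratio in L338R. There the lowest L338R library stood only just above the highest of kcs1-WT, at 3.94 against 3.82 on the log2 scale. The SDs were 0.34 and 0.36, and nc-pho1 had 20 to 28 counts in L338R.

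Other genes of the phosphate response were read from a list of 11 genes for uptake, storage and regulation of phosphate, without the 5 loci above. The list was chosen with earlier results of these data known. From the same libraries the paper had reported tgp1, SPBPB2B2.06c, pho842, pho841 and nrf1 as higher in STF6 and STF9. It had also reported vtc4 as higher in STF9, tgp1 and SPBPB2B2.06c as lower in the kcs1 mutants, and pho841 as lower in R332T. The counts below are therefore a description and no independent support. In STF6, 7 were higher, 1 was lower and 3 did not pass, where 16.6% of all loci were higher and 11.6% lower, with a median log2 fold change of 0.90, against 0.06 over all loci. In STF9 the counts were 7, 1 and 3, where 18.2% of loci were higher and 15.1% lower, with a median of 1.0 against -0.03. In R332T 1 was higher, 8 were lower and 2 did not pass, where 14.3% of loci were higher and 19.8% lower, with a median of -0.65 against 0.01 over all loci. In both L338R and E834K 0 were higher, 8 were lower and 3 did not pass, with medians of -0.22 and -0.22 against -0.04 and 0.02. The share of all loci that was lower was 11.5% in L338R and 15.4% in E834K. The gene that was lower in both STF mutants and higher in R332T was csk1, which encodes a kinase that activates cyclin-dependent kinases, and it missed the threshold in STF6 with total counts. The 8 lower in L338R became 5 when edgeR used the size factors of DESeq2, while with total counts STF9 had 2 lower, R332T 3 higher and E834K 7 lower.

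tgp1, which encodes a glycerophosphodiester transporter and is likewise preceded by an lncRNA gene, had log2 fold changes of 5.46 in STF6 (44.0-fold, standard error 0.12, edgeR, adjusted p = 4.62e-12) and 5.54 in STF9 (46.5-fold, standard error 0.12, adjusted p = 4.02e-12). In the kcs1 mutants tgp1 fell by 2.34 on the log2 scale in R332T, 1.62 in L338R and 1.59 in E834K. Its fall in R332T was thus smaller than the -4.91 of pho84 and the -5.99 of pho1, though its rise in the STF mutants was larger. SPBPB2B2.06c, annotated as an extracellular nucleotidase, had log2 fold changes of 4.09 and 4.17 in STF6 and STF9 and of -4.70, -1.99 and -2.16 in R332T, L338R and E834K. The phosphate transporter gene pho841 moved less, by 1.07 and 1.10 and by -1.07, -0.57 and -0.52, and nrf1, a subunit gene of the vacuolar polyphosphate synthase complex, by 1.16 and 1.39 and by -0.86, -0.15 and -0.15. All of these passed with TMM factors (highest adjusted p = 0.0376, edgeR), though nrf1 missed the threshold in L338R with the size factors of DESeq2 and in E834K with total counts. The gene of the transcription factor Pho7, pho7, did not pass in any of the 5 mutants, with log2 fold changes from -0.13 to 0.08, but with total counts it passed as lower in STF6 and STF9 and as higher in R332T.

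The Ecl family list held the other 2 members, ecl1 and ecl2. ecl1 moved opposite to ecl3 in every mutant. Its log2 fold change was -2.16 in STF6 (standard error 0.15, edgeR, adjusted p = 4.03e-07) and -1.95 in STF9 (adjusted p = 1.12e-06), and it rose in R332T (0.82, adjusted p = 2.89e-05), L338R (0.53, adjusted p = 0.00134) and E834K (0.67, adjusted p = 0.00023). ecl2 passed only in E834K (0.34, adjusted p = 0.00873), with values from -0.27 to 0.23 elsewhere. With total counts in place of TMM factors ecl2 was also called lower in STF6.

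**Figure D5:**
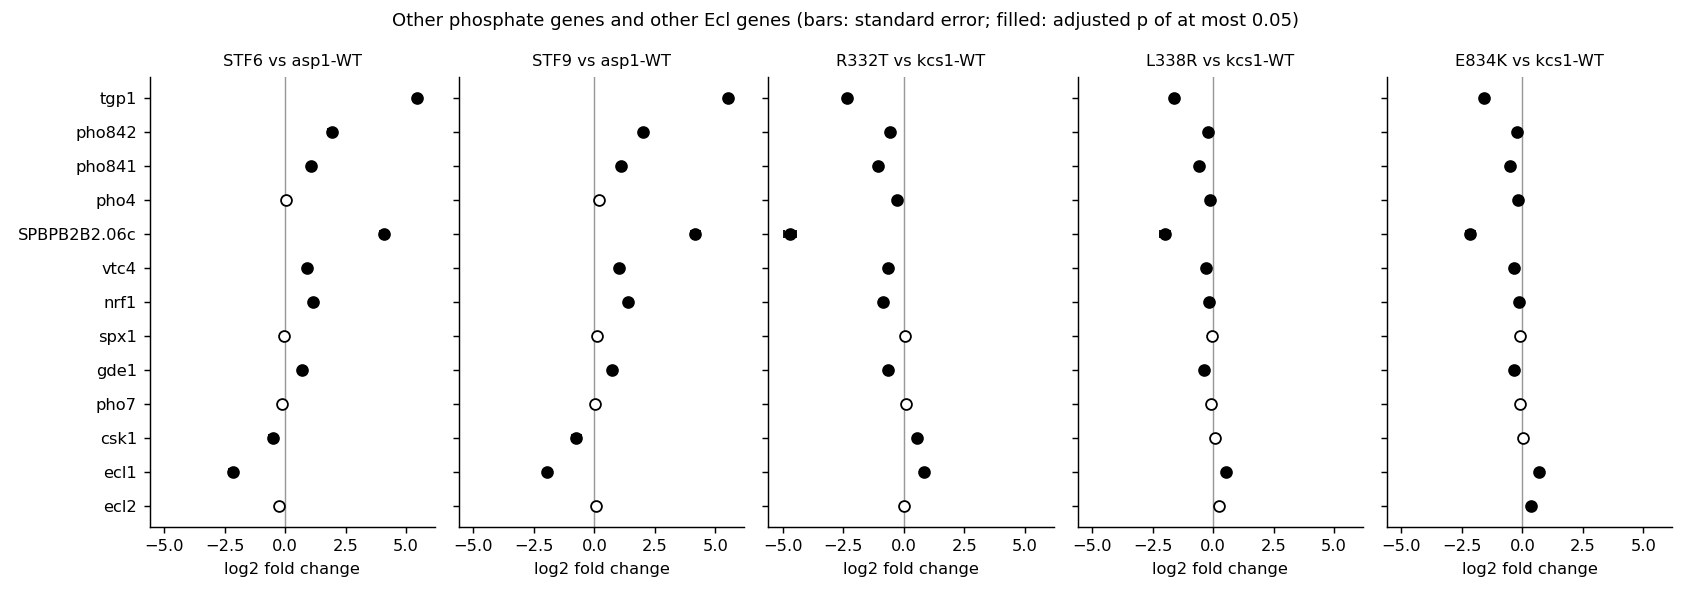
Log2 fold change of 11 other phosphate genes and of ecl1 and ecl2 in each mutant (points, bars for the standard error, filled where the adjusted p was at most 0.05). tgp1 and SPBPB2B2.06c moved furthest, up to 5.54 in STF9 and down to -4.70 in R332T, and ecl1 moved opposite to most phosphate genes.

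The enzymes of the inositol pyrophosphate pathway and the factors that end or destroy noncoding transcripts formed 3 further lists. Their counts are to be read against the share of all loci that passed in either direction, which was 28.2% in STF6, 33.3% in STF9, 34.1% in R332T, 22.4% in L338R and 27.8% in E834K. Of 7 inositol pyrophosphate enzyme genes, 2 were higher and 1 lower in STF6, 1 and 1 in STF9, 1 and 2 in R332T, 0 and 3 in L338R and 0 and 2 in E834K. asp1 itself had log2 fold changes of 0.41 in STF6, 0.04 in STF9 and -0.43, -0.31 and -0.33 in R332T, L338R and E834K, and passed in all but STF9, and with total counts not in STF6 either. kcs1 did not pass in any mutant, with values from -0.13 to 0.13. A stop codon or a missense change cannot be seen in counts per gene, so these values are no check of the labels. ipk1, whose product makes IP6, was lower in STF6 (-0.57), STF9 (-0.45), L338R (-0.37) and E834K (-0.39) and higher in R332T (0.22). siw14, the gene of a phosphatase that acts on inositol pyrophosphates, had log2 fold changes of 0.30 in STF6 and 0.45 in STF9. Both passed, the one in STF6 not with the size factors of DESeq2, and siw14 did not pass in the kcs1 mutants.

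Of 16 genes for 3' processing and termination, 1 was higher and 2 lower in STF6 and also in STF9, 0 and 5 in R332T, 1 and 3 in L338R and 0 and 5 in E834K. Taken in either direction, these counts are near or below the shares of all loci that passed. By direction, 19.8%, 11.5% and 15.4% of all loci were lower in R332T, L338R and E834K, smaller shares than those of the list. The list medians there were -0.13, -0.20 and -0.14, against 0.01, -0.04 and 0.02 over all loci. Whether the list differed from all loci was not tested. With total counts there were 1 and 4 in STF9, 3 and 5 in R332T and 1 and 5 in E834K. pcf11, a subunit gene of the cleavage factor, fell in both STF6 and STF9 by 0.71 on the log2 scale (adjusted p = 1.84e-05 and 1.96e-05, edgeR). seb1, which encodes an RNA binding termination factor, had log2 fold changes of -0.39, -0.27 and -0.32 in R332T, L338R and E834K and passed in all 3. dhp1, the gene of the nuclear 5' exonuclease, passed in R332T (-0.32) and E834K (-0.18). Of 7 genes for nuclear decay of noncoding RNA, 1 was higher in STF6 and 1 lower in STF9. In R332T 2 were lower, and 1 was lower in each of L338R and E834K. In each mutant this was below the share of all loci that passed in either direction. The share that was lower was 19.8% in R332T, 11.5% in L338R and 15.4% in E834K. With total counts dis3 was also lower in STF9 and 1 gene, erh1, was higher in R332T. dis3, the catalytic exosome subunit gene, had values of -0.45, -0.34 and -0.44 in the 3 kcs1 mutants, and passed in each. red1 passed in STF6 (0.67), and in STF9 only with the size factors of DESeq2, and mmi1, whose product binds noncoding RNA for decay, only in R332T (-0.20). The medians of these 3 lists were between -0.22 and 0.12 in all 5 mutants with TMM factors, against -0.04 to 0.06 over all loci.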

How the data were processed

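The deposited count tables hold whole-number counts of reads per locus, which the authors made by mapping paired-end reads to ASM294v2 with HISAT2 2.1.0 and counting exons with HTSeq 0.10.0. The strand setting is not given in the sources used here. The labels name another library kit than the paper. The authors' own comparison tables (fold changes, p-values) were not used. Of 6988 loci, 6836 matched the ASM294v3 gene table, used for names and for the order, orientation and overlap of neighbouring loci. Its build differs, so no coordinates, lengths or sequences from it are printed.

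Each experiment was fitted separately on all its groups with edgeR 4.0.16 (R 4.3.3): filterByExpr (6144 and 6093 loci kept), TMM factors, quasi-likelihood F-tests, a prior count of 0.125 and Benjamini-Hochberg adjustment over all loci tested. Residual degrees of freedom were 6 and 8. The square root of F gave each standard error. The fit was tested on simulated counts. DESeq2 1.42.0, other scalings, no filter, only the groups compared, each library left out and a replicate block were alternatives. Python 3.11.15 made tables and plots. No replicate pair was a duplicate (lowest chi-square per degree of freedom 3.28 over 21 pairs).

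Same-numbered libraries deviated together, with every correlation over 0.1, in STF6 against asp1-WT (0.76, 0.172 and 0.836) and in L338R against kcs1-WT (0.726, 0.398 and 0.428). What these libraries shared is not given in the sources used here and was not tested. Over all 27 pairs the correlations ran from -0.281 to 0.836. The members and gene lists were chosen with earlier results of these data known. Named besides the 5 loci were tgp1 and up to 3 genes per list with the smallest adjusted p, neighbouring loci, and for each locus the 5 loci (at least 1 CPM on average) most correlated with it. pho7, csk1, kcs1 and erh1 were added after their values were seen.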

Additional observations from a re-analysis of the deposited data

How the results depend on the processing

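For the 5 loci in 9 comparisons, 507 of 534 alternative values kept the direction and side of the threshold, 12 lost the threshold, 3 gained it and 12 changed sign. The 12 that changed sign belonged to 6 fold changes that did not pass, and none passed with the other sign. Over the fits without 1 library these ranged from -0.0883 to 0.0643 for ecl3 and from -0.1244 to 0.0101 for prt2 in STF9 against STF6, from -0.1782 to 0.339 for nc-pho1 in E834K, from -0.0475 to 0.1258 for prt2 in R332T against L338R, from -0.1054 to 0.068 for prt2 in R332T against E834K and from -0.0181 to 0.0841 for pho84 in L338R against E834K. With the size factors of DESeq2 ecl3 in STF9 against STF6 was 0.0146, and with total counts pho84 in L338R against E834K was -0.0094. DESeq2 gave no adjusted p for 6 further values. The fold changes of pho84, pho1 and ecl3 against wild type, and of prt2 in all mutants but L338R, passed in every alternative. nc-pho1 in R332T did not pass with DESeq2 (log2 fold change 0.79), and over the fits without 1 library it ranged from 0.63 to 0.99. prt2 in L338R did not pass when the 2 groups alone were fitted (0.42) and ranged from 0.35 to 0.46 without 1 library. nc-pho1 in STF6 ranged from -0.92 to -0.53 without 1 library. nc-pho1 in R332T against E834K passed when the 2 groups alone were fitted (0.64) and ranged from 0.46 to 0.97 without 1 library, and pho1 in L338R against E834K from 0.11 to 0.25. The cause was not tested. A replicate block changed no call on the 5 loci (nc-pho1 in STF6 -0.69, prt2 in L338R 0.41). It moved the number of lower loci in STF9 from 927 to 1409, the loci passing in STF9 against STF6 from 5 higher and 0 lower to 100 and 324, and in L338R against E834K from 0 and 0 to 41 and 4. Other counts over all loci moved as well. Fitting only 2 groups gave 610 higher loci in STF6 (1021 with all groups), 1658 lower in STF9 (927), 387 higher and 242 lower in L338R (667 and 698), 1572 higher in R332T (871), 363 higher in R332T against L338R (1073), and 1056 higher and 1009 lower in R332T against E834K (247 and 602). Total counts without TMM factors gave 1889 lower in STF9, 1779 higher and 651 lower in R332T against L338R (1073 and 1158) and 636 higher in R332T against E834K. DESeq2 gave 250 higher loci in STF9 against STF6. Without STF6 replicate 1 that comparison gave 582 higher and 1539 lower, and without L338R replicate 2 the comparison of L338R with E834K gave 138 and 465. Leaving out 1 library also gave 717 higher (without asp1-WT replicate 3, 1119 with all) and 543 to 604 lower loci in STF9 (without 1 STF9 library), 1101 lower in STF6 (without STF6 replicate 3, 710 with all) and 458 to 544 higher in R332T (without kcs1-WT replicate 1 or 1 R332T library). Without kcs1-WT replicate 1, 449 were lower in L338R (698 with all) and 615 in E834K (939). R332T against L338R had 478 to 613 higher without 1 R332T library and 1640 without L338R replicate 2 (1073 with all). R332T against E834K had 120 to 139 higher without 1 library (247 with all) and as few as 371 lower (602). Not every count that moved is listed. Total counts shifted the median of all loci by -0.20 in STF9 against asp1-WT, -0.17 in STF9 against STF6 and 0.10 in R332T against L338R (log2). The counts of nc-pho1, 20 to 64 per kcs1 library, limit what could be detected there.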

Other observations

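The loci around the cluster were read in the order of a later build's annotation. SPNCRNA.117, a noncoding locus near ecl3, did not pass in any mutant, with log2 fold changes from -0.30 to 0.34 on mean normalized counts of 23.3 to 43.7. On that side, the nearest counted coding gene beyond the cluster is SPBC8E4.03, annotated as an agmatinase, an enzyme that breaks down agmatine. Its log2 fold change was -2.12 in STF6 (standard error 0.18, adjusted p = 2.41e-06, edgeR) and -1.77 in STF9 (standard error 0.18, adjusted p = 1.15e-05), opposite in sign to ecl3, pho84 and pho1. In the kcs1 mutants SPBC8E4.03 was higher by little, at 0.18 in R332T (adjusted p = 0.0113), 0.31 in L338R (adjusted p = 0.000525) and 0.30 in E834K (adjusted p = 0.000555). On the other side, fub2 had mean normalized counts of 5.52 to 16.8 and did not pass in any mutant. SPBC8E4.03 and fub2 were chosen after their values were seen.

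The pattern of each locus was compared with those of 5780 others across the 21 libraries, as log2 CPM minus the mean of the wild type of the same experiment. These correlations describe the libraries, which fall into 7 groups and share their wild types, and they carry no p. Of all loci, pho1 was the most like pho84 (Pearson r = 0.997). Within the cluster, r was 0.942 between pho84 and ecl3 and 0.714 between prt2 and nc-pho1. Outside the cluster, cbp7 and rds1 were the most like pho84 (r = 0.972 for each), ahead of SPBPB2B2.06c (r = 0.971). SPBPB2B2.06c and mae2 were the most like pho1 (r = 0.983 and 0.982) and pho841 was the most like ecl3 (r = 0.996). Pearson r does not depend on the size of the changes. Those of mae2 were small, at 0.64 in STF6, 0.81 in STF9, -0.90 in R332T, -0.28 in L338R and -0.40 in E834K (log2). ecl1 was the most like prt2 (r = 0.979), and tgp1 had the lowest r with prt2 outside the cluster (-0.977), while ecl3 had -0.969. SPNCRNA.1579, a noncoding locus, was the most like nc-pho1 (r = 0.900).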
